A study of Mus musculus with 40 samples.

Results

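RNA of CT26 tumors, grown from a mouse colon carcinoma line, was compared between mice given anti-PD-1 together with the WT mAb against GARP:TGF-β1 (the WT combination) and mice given anti-PD-1 alone. The comparison asked what blocking GARP:TGF-β1 adds when PD-1 is already blocked. Its members are the 10 libraries tagged with either treatment, 5 mice per group, of 40 mice in 8 groups. BALB/c mice had been injected with 1000000 CT26 cells, treated on days 6, 9 and 12, and tumors were taken on day 13. The WT mAb is clone 58A2 on a mIgG2a backbone with an unmutated Fc region. The FcD version of the same clone carries a mutated Fc region that does not bind Fcγ receptors. Anti-PD-1 FcS has a silenced Fc region, and both groups of the comparison received it. The isotype control group, used here as background, received a mIgG2a antibody against a viral protein. Another combination group received anti-TGF-β, a mAb that neutralizes the TGF-β isoforms, with anti-PD-1. CT26 is a single transplanted line, and each tumor RNA also holds RNA of the host cells around and inside the tumor.

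GARP, encoded by Lrrc32, is a transmembrane protein that holds latent TGF-β1 on the surface of stimulated regulatory T cells (Tregs). Integrin αVβ8, whose β chain is encoded by Itgb8, releases active TGF-β1 from this complex, and the cytokine then signals through its receptors and Smad proteins to restrain T cells. PD-1, encoded by Pdcd1, is an inhibitory receptor of activated T cells, and PD-L1, encoded by Cd274, is its ligand. Killing by CD8+ T cells and NK cells uses perforin and granzymes. Activated T cells secrete IFNγ, which induces MHC molecules and guanylate-binding proteins in many cell types. Type I interferons act on an element in promoters of antiviral genes, the interferon-stimulated response element (ISRE).

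The 10 libraries held 13610069 to 19691830 reads counted on genes, within the 11931730 to 20680548 of all 40. The mean was 15912501 ± 2434104 (SD) in the WT combination and 13940793 ± 390353 with anti-PD-1 alone, a difference that an exact permutation test gave a 2-sided p of 0.0873. The smallest p that 5 mice against 5 allow is 0.00794. Levels are CPM, the counts of a gene per 1000000 counted reads after TMM scaling, and 14760 of 54087 genes passed a filter on low counts. Libraries numbered 41 to 60 had at most 6 Xist counts and at least 91 Ddx3y counts, while libraries 61 to 80 had at least 784 Xist counts and 0 of Ddx3y. Anti-PD-1 mice 1, 2 and 3 and WT combination mice 1 and 2 belong to the first part, and the other 5 of the 10 mice to the second.

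Of the epithelial markers, Krt8, a simple-epithelium keratin, had at most 5 counts in the first part and 58 to 970 in the second. Epcam, an epithelial adhesion molecule, was at 4 counts or fewer in the first part and at 21 to 351 in the second, and the highest value of both genes was in WT combination mouse 5. Krt18, another such keratin, had 65 to 185 counts in the first part and 163 to 851 in the second. Cdh1, an epithelial cadherin, had 11 to 28 and 27 to 285. Both ran higher in the second part, but the 2 parts overlapped. Cdx2, an intestinal transcription factor, was detected in all 10 mice, at 1.62 to 5.56 CPM. Vil1, a brush-border protein, had at most 3 counts in any mouse.

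A few of the 10 libraries stood apart from the rest. WT combination mouse 5 had a median Spearman correlation of 0.929 with the other 9 mice, where the other mice had 0.971 to 0.990, and 791 CPM of Xist, against 117 to 246 CPM in the other libraries of its part. It was the highest of the 10 mice for 4679 genes. Anti-PD-1 mouse 1 had the lowest levels of interferon-induced genes and the highest level of adipocyte genes, whose summed level was 837 CPM there and 58.4 to 156 CPM in the other anti-PD-1 mice. Anti-PD-1 mouse 2 had 203 CPM of skeletal muscle genes, against 4.87 to 10.6 CPM in the other anti-PD-1 mice, and the highest T cell gene levels of its group. Values without these mice are given beside the gene lists they moved most, and counts over all genes without them are given next.

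No gene passed an adjusted p of 0.05 between the WT combination and anti-PD-1 alone with edgeR's quasi-likelihood test. The smallest adjusted p over the 14760 genes was 0.231. At an unadjusted p under 0.05 there were 1650 higher genes (11.2%) and 884 lower genes (5.99%), 2534 together (17.2%). DESeq2's Wald test also called 0 genes, with 2075 higher and 914 lower at an unadjusted p under 0.05, and limma's voom with sample weights called 0, with 1500 and 1335. The count depended on single mice. Without anti-PD-1 mouse 2, 538 of 14939 genes were called (3.6%), 428 of them higher (2.86%) and 110 lower (0.736%). All 538 had the same direction with all 10 mice, 536 also without WT combination mouse 5, and 170 had an unadjusted p under 0.05 without that mouse. Without WT combination mouse 5, 0 genes were called, and 319 higher genes (2.15%) and 486 lower genes (3.27%) were left at an unadjusted p under 0.05. Of the 1650 higher genes, 1464 had their highest value in WT combination mouse 5. Without it 1621 of them kept their direction and 211 kept an unadjusted p under 0.05. Of the 884 lower genes, 644 had their lowest value in that mouse, and 310 kept the unadjusted p without it. Counts of list members below are at this unadjusted p unless stated otherwise, and are read against 11.2% and 5.99%. Counts without WT combination mouse 5 are read against 2.15% higher and 3.27% lower, and counts without anti-PD-1 mouse 1 against 6.66% and 2.95%. Counts at this unadjusted p without anti-PD-1 mouse 2 are read against 15.2% higher and 10.3% lower.

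Genes of T cells were higher as a group in the WT combination than with anti-PD-1 alone. Of the 18 tested members of the T cell receptor complex and coreceptors, 16 were higher at an unadjusted p under 0.05 and 0 lower, with a median log2 fold change of 1.44, where all genes tested had a median of 0.00. Cd3e, a signaling chain of the T cell receptor, was at 3.10, 9.38, 1.36, 2.29 and 2.81 CPM in the anti-PD-1 mice and at 5.98, 2.82, 8.29, 5.41 and 36.7 CPM in the WT combination mice. Its log2 fold change was 1.64 ± 0.58 (standard error) with an adjusted p of 0.231, and the groups overlapped. Cd8a, the coreceptor of cytotoxic T cells on chromosome 6 (71373427 to 71379173, GRCm38, plus strand), was at 2.29, 24.9, 1.21, 5.60 and 4.83 CPM with anti-PD-1. In the WT combination it was at 11.6, 8.17, 22.8, 10.2 and 79.7 CPM, higher by 1.76 ± 0.67 on the log2 scale. Anti-PD-1 mouse 2 lay above all WT combination mice but mouse 5, and the other 4 anti-PD-1 mice lay below all WT combination mice. Ptprc, the leukocyte surface protein CD45, differed by 1.07 ± 0.42, and by 0.34 without WT combination mouse 5. Cd4, the coreceptor of helper T cells and Tregs, differed by 0.78 ± 0.44 (unadjusted p = 0.0878), and Zap70, the kinase of the receptor complex, by 1.36 ± 0.45 (unadjusted p = 0.00449).

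The summed level of this T cell list was 40.9 to 170 CPM with anti-PD-1 and 74.3 to 566 CPM in the WT combination, with no member at 0. Its mean log2 CPM was 1.56 with anti-PD-1, 2.74 in the WT combination and 2.29 over WT combination mice 1 to 4. In isotype control tumors the list was at 2.19, above the anti-PD-1 mean. Without WT combination mouse 5 its median was 0.60 and 1 of 18 members was higher at an unadjusted p under 0.05. Without anti-PD-1 mouse 2 the median was 1.95, and 12 of 18 members passed an adjusted p of 0.05, Cd3e, Cd8a, Lat and Zap70 among them. That mouse was the highest of its group for the T cell, cytotoxic, PD-1 and mast cell lists. Leaving it out raises these differences by construction, so calls made without it are no added support. The difference of the list was 0.44 in the first library part and 1.80 in the second, as the median over members of the difference in mean log2 CPM. In tumor tissue, more cells of a type and more RNA per cell cannot be told apart.

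**Figure D1:**
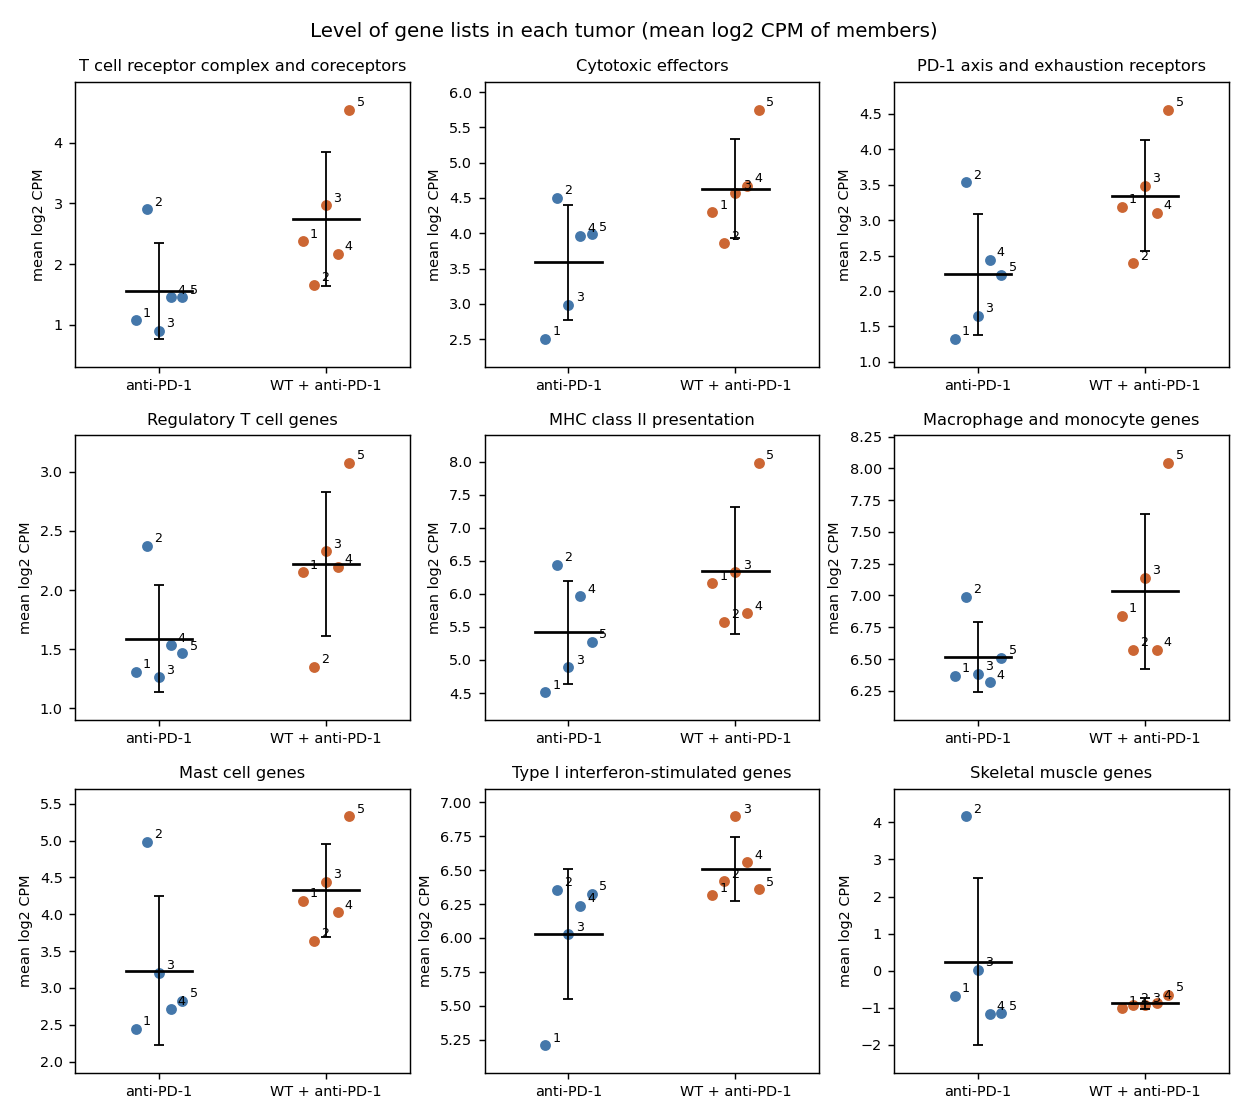
Mean log2 CPM of the members of 9 gene lists in each tumor, with anti-PD-1 alone (blue, 5 mice) and with the WT combination (orange, 5 mice). Numbers are the mice, bars the mean and whiskers the SD; mouse 5 of the WT combination and mouse 2 of the anti-PD-1 group top their groups for T cell, macrophage and mast cell genes, while interferon-stimulated genes have mouse 3 highest and anti-PD-1 mouse 1 lowest.

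Effector genes of killing followed the same pattern, with 10 of 18 members higher, 0 lower and a median log2 fold change of 1.12. Gzmb encodes granzyme B, a protease that cytotoxic cells deliver to their targets, and lies on chromosome 14 (56258838 to 56262260, minus strand). It was at 12.2, 140, 29.9, 81.3 and 92.6 CPM with anti-PD-1 and at 112, 86.6, 143, 151 and 290 CPM in the WT combination. The difference was 1.14 ± 0.40 (95% interval 0.33 to 1.94, adjusted p = 0.231), and it was 0.79 without WT combination mouse 5. Prf1, the pore-forming perforin, was higher by 1.08 ± 0.39, and Gzmk, a granzyme of memory CD8+ T cells, by 2.78 ± 0.76, of which 1.30 was left without WT combination mouse 5. Ifng, encoding IFNγ, was at 0.148, 3.45, 0.285, 1.84 and 1.23 CPM with anti-PD-1 and at 2.99, 2.21, 2.85, 1.75 and 5.66 CPM in the WT combination. Anti-PD-1 mouse 2 and mouse 4 reached the range of the WT combination, and the difference was 1.14 ± 0.47 (unadjusted p = 0.0197). Tnf, encoding TNFα, differed by 0.70 ± 0.34 (unadjusted p = 0.0475). The members Gzma, Gzmm and Lamp1 had log2 fold changes of 0.37, -0.50 and 0.13 and did not pass the unadjusted threshold. Without WT combination mouse 5, 0 of the 18 members were at an unadjusted p under 0.05 and the median was 0.56. Without anti-PD-1 mouse 2, 6 members passed an adjusted p of 0.05.

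Among genes of the PD-1 axis and of T cell exhaustion, 10 of 12 were higher and the median was 1.24. Pdcd1 was at 1.85, 11.9, 1.07, 3.02 and 3.25 CPM with anti-PD-1 and at 6.42, 3.24, 11, 4.97 and 46.3 CPM in the WT combination, a difference of 1.77 ± 0.63. Its mean in isotype control tumors was 10.4 CPM. Havcr2 and Lag3, which encode the inhibitory receptors TIM-3 and LAG-3, were higher by 1.17 ± 0.41 and 1.31 ± 0.49. Cd274, the ligand, was at 19.3, 213, 54.9, 141 and 100 CPM with anti-PD-1 and at 201, 126, 236, 194 and 285 CPM in the WT combination, with a difference of 0.98 ± 0.41 (unadjusted p = 0.0221). Without WT combination mouse 5, 0 of the 12 members stayed at an unadjusted p under 0.05 (median 0.64), and without anti-PD-1 mouse 2, 5 passed an adjusted p of 0.05.

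RNA of the genes for GARP, TGF-β1 and the integrin chain was measured, not the protein complex that the mAb binds. Lrrc32, on chromosome 7 (98489283 to 98502181, plus strand), was at 8.49, 5.79, 3.50, 5.90 and 3.68 CPM with anti-PD-1 and at 3.43, 2.36, 6.51, 4.82 and 13.8 CPM in the WT combination. Its log2 fold change was 0.18 ± 0.44 (95% interval -0.71 to 1.06), and -0.36 without WT combination mouse 5. Tgfb1 differed by 0.26 ± 0.16 and by -0.03 without that mouse, and Itgb8 by -0.10 ± 0.40. Foxp3, the transcription factor that defines Tregs, was at 0.577 to 2.0 CPM with anti-PD-1 and at 0.719 to 2.56 CPM in the WT combination, a difference of 0.78 ± 0.47 (unadjusted p = 0.105). In the Treg list 6 of 14 members were higher and 0 lower (median 0.72), led by Icos, a costimulatory receptor, with 1.82 ± 0.66. Ctla4 and Il2ra, also in the list, are expressed by activated conventional T cells too. Its median was 0.37 without WT combination mouse 5, with 0 members at an unadjusted p under 0.05, and its differences were 0.14 and 0.99 in the 2 library parts.

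Genes for TGF-β ligands, receptors and Smads showed no common direction. Of 13 genes for TGF-β ligands and activation of latent TGF-β, 1 was higher and 0 lower (median 0.05). The higher gene was Nrros, which anchors latent TGF-β1 on myeloid cells, at 0.65 ± 0.25, and at 0.19 without WT combination mouse 5. Of 16 receptors, Smads and feedback genes, 1 was higher (Eng, a co-receptor of endothelial cells, 0.67 ± 0.30, and 0.12 without WT combination mouse 5) and 1 lower (Tgfbr3, a co-receptor, -0.30 ± 0.13, and -0.15 without that mouse), with a median of 0.01. Pmepa1, a TGF-β-induced feedback inhibitor, was at 45.6, 18.8, 33.5, 37.7 and 26.9 CPM with anti-PD-1 and at 14.4, 17.2, 20.6, 22.0 and 34.1 CPM in the WT combination. It differed by -0.58 ± 0.31 with all mice (unadjusted p = 0.0664) and by -0.81 without WT combination mouse 5 (unadjusted p = 0.0158). Smad7, the inhibitory Smad, differed by -0.03. Myofibroblast and stromal targets had 1 higher and 1 lower member of 18 (median -0.08), and the median turned to 0.30 without anti-PD-1 mouse 1. Collagen genes had 0 higher and 3 lower of 18 (median -0.16), namely Col6a1, Col6a2 and Col18a1, and only 3 of 18 had a log2 fold change above 0. Without anti-PD-1 mouse 1, 0 collagen genes were at that p (median 0.04). The study also defined genes that cytokines induce in cultured human cells, matched here to mouse genes by symbol, with 113 of 153 tested for TGF-β1 in all cell types. Of these, 19 were higher and 5 lower, with a median of 0.11. The TGF-β1 list for CD4+ T cells had 9 higher and 2 lower of 40 (median 0.17). Leaving out WT combination mouse 5, the first list had 4 higher and 4 lower (median 0.05) and the second 3 higher and 1 lower (median 0.08).

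Antiviral genes of the type I interferon response were higher with less spread within the WT combination. All 24 tested members had a log2 fold change above 0, 15 were higher at an unadjusted p under 0.05 and 0 lower, with a median of 0.42. Rsad2, the antiviral enzyme viperin, was at 20.7, 58.6, 39.6, 36.8 and 41.8 CPM with anti-PD-1 and at 51.3, 46.4, 157, 102 and 77.0 CPM in the WT combination. It was higher by 1.13 ± 0.34 (unadjusted p = 0.00196, adjusted p = 0.231), and 3 WT combination mice lay above every anti-PD-1 mouse. Mx1, an antiviral GTPase, was higher by 0.77 ± 0.25, and Oasl1, of the oligoadenylate synthetase family, by 0.40 ± 0.13. Irf7, which amplifies interferon production and lies on chromosome 7 (141262706 to 141266481, minus strand), was at 125, 252, 212, 244 and 250 CPM with anti-PD-1. In the WT combination it was at 254, 258, 362, 256 and 338 CPM, so that the 5 mice of each group did not overlap, although the gap between the highest anti-PD-1 and the lowest WT combination mouse was small. Its difference was 0.44 ± 0.17 (adjusted p = 0.232). Ddx60, a helicase of antiviral sensing that is in none of the lists, was at 18.1, 49.1, 34.2, 40.9 and 36.6 CPM with anti-PD-1 and at 59.7, 53.7, 64.4, 55.5 and 51.0 CPM in the WT combination, again without overlap (0.67 ± 0.24, adjusted p = 0.231).

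The interferon-stimulated genes did not depend on WT combination mouse 5. Without it, 20 of the 24 members were higher at an unadjusted p under 0.05, where 2.15% of all genes were, and the median was 0.46. They depended on anti-PD-1 mouse 1, which had the lowest level of the list (mean log2 CPM 5.21, against 6.03 to 6.36 in the other anti-PD-1 mice and 6.31 to 6.90 in the WT combination). Without that mouse, 4 of 24 members were higher, where 6.66% of all genes were, and 0 were lower, where 2.95% were, with a median of 0.26. Without anti-PD-1 mouse 2, Rsad2, Mx1 and Oasl1 passed an adjusted p of 0.05. The differences were 0.43 in the first library part and 0.23 in the second. Isotype control tumors had a mean level of 6.13 for the list.

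**Figure D2:**
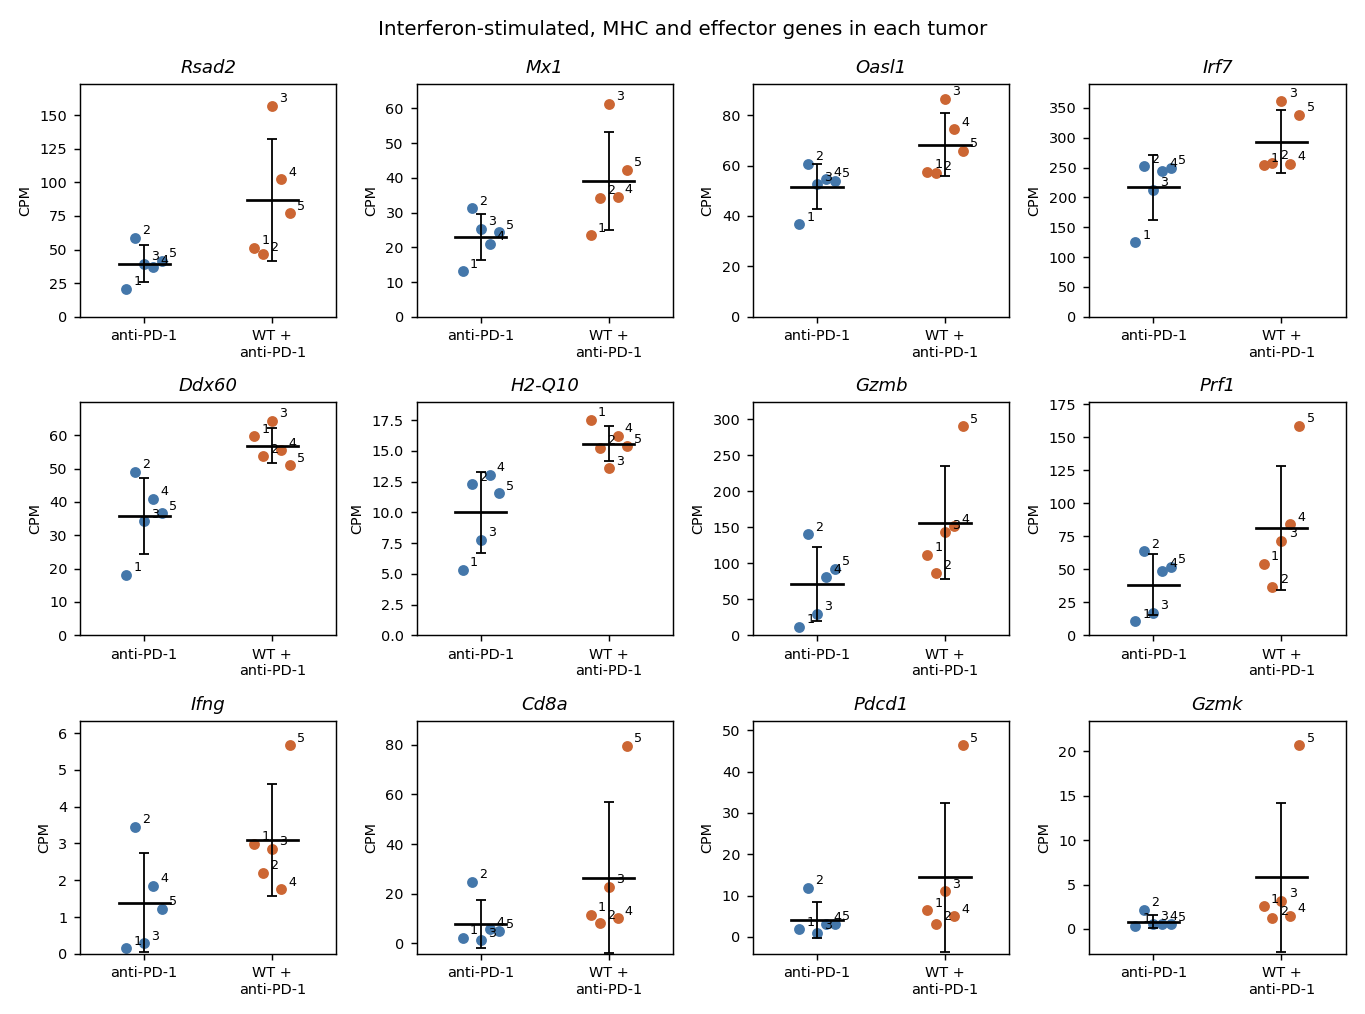
CPM in each tumor for 12 genes, with anti-PD-1 alone (blue) and the WT combination (orange), numbered by mouse, with the mean and SD of 5 mice. Irf7, Ddx60 and H2-Q10 do not overlap between groups, whereas for Gzmb, Cd8a, Pdcd1 and Gzmk the groups overlap, with mouse 5 of the WT combination and mouse 2 of the anti-PD-1 group highest in their groups.

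Promoters are shown for Ddx60, Trim26 and Rsad2, chosen because they hold an ISRE core on either strand, searched as GAAA, any 2 bases and GAAA again. In RefSeq's promoter table (GRCm38.p6), 3.38% of the 9909 tested genes with a promoter entry, and 3.46% of all 27025 genes with one, held this core in the 250 bases before the start. Each sequence is written 5′ to 3′ on the gene's strand up to the last base before the start, with matches in capitals. Ddx60 (chr8:61927837-61928086, plus strand) has 2 matches, the nearer ending 10 bases before the start. Trim26 (chr17:36836896-36837145, plus strand), whose mice did not overlap either, has 2 matches on the other strand that overlap each other. Rsad2 (chr12:26456453-26456702, minus strand) has 1 match on the other strand, ending 111 bases before the start. The promoter entries of Irf7, Oasl1 and H2-Q10 hold no such match in this window. Only 19 of the 24 list members have an entry, so no share is read for the list. A match of letters is a description and does not show binding.
Ddx60: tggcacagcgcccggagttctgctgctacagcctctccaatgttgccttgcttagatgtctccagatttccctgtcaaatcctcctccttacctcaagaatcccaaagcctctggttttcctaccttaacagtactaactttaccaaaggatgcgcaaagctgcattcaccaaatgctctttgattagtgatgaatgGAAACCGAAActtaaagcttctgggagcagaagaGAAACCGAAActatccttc
Trim26: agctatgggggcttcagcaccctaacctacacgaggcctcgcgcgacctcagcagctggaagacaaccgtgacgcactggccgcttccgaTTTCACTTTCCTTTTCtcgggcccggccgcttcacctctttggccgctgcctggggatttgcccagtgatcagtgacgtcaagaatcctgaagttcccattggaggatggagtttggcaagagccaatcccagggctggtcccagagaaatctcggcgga
Rsad2: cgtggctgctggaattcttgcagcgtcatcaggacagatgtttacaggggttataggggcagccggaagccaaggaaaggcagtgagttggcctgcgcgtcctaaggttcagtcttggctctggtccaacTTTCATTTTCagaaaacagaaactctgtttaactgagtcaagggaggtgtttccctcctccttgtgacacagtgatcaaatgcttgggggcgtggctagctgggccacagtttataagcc

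Genes induced by IFNγ were lowest in anti-PD-1 mouse 1. All 17 guanylate-binding proteins and immunity-related GTPases had a log2 fold change above 0, but 2 were higher at an unadjusted p under 0.05 (median 0.54). Their mean log2 CPM was 3.79, 6.99, 5.59, 6.69 and 6.51 with anti-PD-1 and 6.87, 6.63, 7.01, 6.79 and 6.69 in the WT combination. Anti-PD-1 mouse 1, mouse 3 and mouse 5 lay below all 5 WT combination mice, and without mouse 1 the median was 0.26 and 0 members passed. Without anti-PD-1 mouse 2, the highest of its group for this list, 13 members were higher (median 0.80). None of them passed an adjusted p of 0.05. In the signaling core, 3 of 14 were higher (median 0.33), namely Jak1, Ciita and Irf8, a transcription factor of myeloid cells with a difference of 0.77 ± 0.25, and 1 of 14 was higher without WT combination mouse 5 or without anti-PD-1 mouse 1. Of MHC class I presentation genes, 7 of 17 were higher and all 17 were above 0 (median 0.29), and 1 was higher without WT combination mouse 5 (median 0.29) and 0 without anti-PD-1 mouse 1 (median 0.14). Without anti-PD-1 mouse 2, 11 of 17 class I genes and 7 of 14 core genes were higher. B2m, the invariant chain of class I molecules, was higher by 0.27 ± 0.11. H2-Q10, a class I gene outside the lists on chromosome 17 (35470089 to 35474563, plus strand), was at 5.32, 12.3, 7.78, 13.0 and 11.5 CPM with anti-PD-1 and at 17.5, 15.3, 13.6, 16.2 and 15.4 CPM in the WT combination. Its groups did not overlap (0.64 ± 0.17, adjusted p = 0.231). Class I genes share similar sequences, so its reads may be split with those of its relatives. Of the genes that IFNγ induced in cultured human cells, 57 of 206 were higher and 8 lower, with a median of 0.21. The TNFα signature had 69 higher and 11 lower of 277 (median 0.20) and the IL-1β signature 61 higher and 15 lower of 268 (median 0.14). In the order IFNγ, TNFα, IL-1β, 32, 31 and 25 genes were higher without WT combination mouse 5, and 24, 33 and 28 without anti-PD-1 mouse 1.

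Myeloid genes were higher as groups with all mice, and few of them without WT combination mouse 5. Macrophage and monocyte genes had 14 of 20 members higher and 0 lower (median 0.75), and 1 of 20 without WT combination mouse 5 (median 0.16). Apoe, a lipid carrier of macrophages, showed this most plainly, at 564, 391, 896, 334 and 4492 CPM in the WT combination and 369 to 622 CPM with anti-PD-1. Ly6c2, a marker of inflammatory monocytes, held without that mouse, at 5.69, 21.6, 11.3, 10.1 and 13.5 CPM with anti-PD-1 and 20.8, 19.5, 27.5, 23.8 and 41.1 CPM in the WT combination. It differed by 1.09 ± 0.30 with all mice and by 0.88 without WT combination mouse 5 (unadjusted p = 0.00593). MHC class II genes, which present antigen to CD4+ T cells, had 8 of 11 higher (median 0.96), and 0 without WT combination mouse 5 (median 0.32). Receptors for IgG with their shared signaling chain had 5 of 6 higher (median 0.73, and 0.18 without that mouse), with Fcgr1 at 0.81 ± 0.31. Complement genes had 9 of 16 higher (median 0.67), neutrophil genes 5 of 12 (0.62), monocyte chemokines and their receptors 7 of 15 (0.65) and dendritic cell genes 3 of 13 (0.46). These medians were 0.24, 0.41, 0.21 and 0.14 without WT combination mouse 5, and the monocyte chemokine list kept 2 higher members and the other lists 0. Ccl2, which attracts monocytes, was lowest in mouse 5 within the WT combination (222 CPM), and its difference of 0.43 ± 0.17 was 0.55 without that mouse (unadjusted p = 0.00289). NK cell genes had 8 of 10 higher (median 0.81), and 1 of 10 without that mouse (median 0.41), led by the receptor chains Klrc1 (1.99 ± 0.59) and Klrd1 (1.53 ± 0.47).

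Mast cell genes were high in all WT combination mice and in anti-PD-1 mouse 2. Their mean log2 CPM was 2.44, 4.98, 3.20, 2.72 and 2.82 with anti-PD-1 and 4.18, 3.64, 4.44, 4.02 and 5.33 in the WT combination. With all mice 6 of 9 members were higher (median 0.95), and without anti-PD-1 mouse 2 the median was 1.88 and 7 of 9 passed an adjusted p of 0.05. Cpa3, a carboxypeptidase of mast cell granules, was at 7.39, 65.0, 15.8, 9.73 and 11.3 CPM with anti-PD-1 and at 31.1, 27.0, 45.9, 30.1 and 98.2 CPM in the WT combination, so that 4 anti-PD-1 mice lay below all 5 WT combination mice. Its difference was 1.08 ± 0.48, and 2.07 without anti-PD-1 mouse 2 (adjusted p = 0.0414). Without WT combination mouse 5, 0 of 9 members were at an unadjusted p under 0.05 (median 0.58).

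Costimulatory receptors and ligands had 4 of 13 members higher and 1 lower (median 0.41), and genes of the response to IL-2, IL-7 and IL-15 had 6 of 17 higher and 2 lower (median 0.33). The IL-1 family had 5 of 13 higher and 1 lower (median 0.30), and TNF and NF-κB feedback genes 7 of 22 higher and 1 lower (median 0.11). In the same order of lists, 1, 1, 0 and 1 genes were higher without WT combination mouse 5, with medians of 0.32, 0.22, 0.26 and 0.07, and 3, 3, 2 and 1 without anti-PD-1 mouse 1. Chemokines that attract lymphocytes and dendritic cells had 4 of 12 higher (median -0.10), while those that attract neutrophils had 0 of 6 (median -0.09). Both medians turned above 0 without anti-PD-1 mouse 1, to 0.55 and 0.60, and without WT combination mouse 5 no gene of the first list was higher. B cell and plasma cell genes had 1 of 19 higher, with a median of 0.14 and of 1.37 without anti-PD-1 mouse 1. Genes of eicosanoid synthesis and receptors were split, with 5 of 17 higher and 3 lower (median 0.54, and 0.12 without WT combination mouse 5), and matrix proteases and their inhibitors had 1 of 13 higher and 3 lower (median -0.01).

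Genes of muscle, fat, skin, vessels, fibroblasts and blood moved with single libraries. Skeletal muscle genes were lower, with 8 of 9 members at an unadjusted p under 0.05 and a median of -3.07. Their summed level was 203 CPM in anti-PD-1 mouse 2 and 4.87 to 10.6 CPM in the other 9 mice, and without that mouse 1 member was lower and 1 higher at an unadjusted p under 0.05 (median -0.46). Adipocyte genes had a median of -0.41 with all mice and of 2.45 without anti-PD-1 mouse 1. Keratinocyte genes had 0 of 5 members at an unadjusted p under 0.05, with a median of 0.55 and of -1.01 without WT combination mouse 5. With all mice and library part as a covariate, the keratinocyte median was -0.42 and the adipocyte median 0.46. Endothelial genes had 1 of 14 higher (median 0.30) and fibroblast and pericyte genes 2 of 13 lower (median -0.28), and without WT combination mouse 5 the endothelial median was -0.07. Without anti-PD-1 mouse 1 the fibroblast median was 0.17. Erythroid genes had 4 of 5 higher (median 1.59), and their summed level of 596 CPM in WT combination mouse 1 was the highest of the 10 mice. Without that mouse the median was 0.50. Whether blood, fat or muscle in the samples touched other results was not tested.

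Of 30 cell cycle genes 0 were higher or lower at an unadjusted p under 0.05 (median -0.04), and of 37 proteasome genes also 0 (median -0.06). Nuclear genes of the respiratory chain had 4 of 37 lower (median -0.11), and 0 without WT combination mouse 5. Glycolysis and hypoxia genes had 4 of 25 higher (median 0.11, and 1 higher without WT combination mouse 5), among them Slc2a3, a glucose transporter of leukocytes, and Hk2, a hexokinase, at 0.51 ± 0.21 and 0.58 without WT combination mouse 5. All 77 genes for cytosolic ribosomal proteins had a log2 fold change below 0 (median -0.28). At an unadjusted p under 0.05, 9 were lower with all mice and 1 without WT combination mouse 5. Without anti-PD-1 mouse 2, 28 were lower, where 10.3% of all genes were. The mean log2 CPM of the list ran from 9.51 to 10.11 with anti-PD-1 and from 9.08 to 9.98 in the WT combination. The median difference was 0.04 in the first library part and -0.52 in the second, so it was not present in both. Arginine metabolism had 4 of 9 higher (median 0.56, and 1 of 9 without WT combination mouse 5), led by Slc7a2, a cationic amino acid transporter, with 1.71 ± 0.56 and with 1.28 without WT combination mouse 5 (unadjusted p = 0.0296).

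The 5 mice of each group did not overlap for 98 of the 14760 genes (0.664%), 37 of them higher (0.251%) and 61 lower (0.413%) in the WT combination. None of these genes passed the adjusted test, and the lack of overlap is given as a description of these mice. A gene without overlap has the smallest p that an exact permutation test of 5 mice against 5 can give, 0.00794 (2-sided), which is not adjusted for the number of genes tested. The observed 0.664% of genes is not above the share that this p gives by chance alone. Beside Irf7, Ddx60, Trim26 and H2-Q10, the higher genes included Cyp4f17, a cytochrome P450 of fatty acid hydroxylation, at 1.26, 0.966, 1.57, 1.40 and 1.37 CPM with anti-PD-1. In the WT combination Cyp4f17 was at 2.63, 1.95, 2.21, 2.19 and 3.30 CPM (0.90 ± 0.23), and it differed by 0.80 in each library part. Ncald, a neuronal calcium sensor, had the largest difference among the named genes of this group, 2.23 ± 0.56, and 1.31 without WT combination mouse 5. Eif2ak4, the kinase GCN2 that senses amino acid shortage, was at 26.2 to 30.6 CPM with anti-PD-1 and at 32.3 to 39.5 CPM in the WT combination (0.30 ± 0.11). Dll1, a Notch ligand, and Clec2i, a ligand of an NK cell receptor, differed by 0.49 ± 0.19 and 1.58 ± 0.44.

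Among the lower genes, Rdh10, a retinol dehydrogenase of retinoic acid synthesis on chromosome 1 (16105774 to 16133734, plus strand), was at 34.6, 19.4, 26.9, 32.8 and 20.6 CPM with anti-PD-1. In the WT combination it was at 15.1, 16.4, 16.6, 17.2 and 14.4 CPM, a difference of -0.75 ± 0.19 (95% interval -1.14 to -0.37, adjusted p = 0.231). The difference was -0.73 and -0.69 within the library parts, and the mean in isotype control tumors was 20.7 CPM. Rap1gap, which switches off the small GTPase Rap1, was at 17.7 to 25.04 CPM with anti-PD-1 and at 12.9 to 16.7 CPM in the WT combination (-0.56 ± 0.16). Spsb1, an adaptor of ubiquitin ligases, differed by -0.49 ± 0.13, and Mgst3, a microsomal glutathione transferase, by -0.58 ± 0.19. Anapc10, a subunit of the anaphase-promoting complex, was at 21.7 to 22.7 CPM with anti-PD-1 and at 16.6 to 19.4 CPM in the WT combination (-0.32 ± 0.11).

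**Figure D3:**
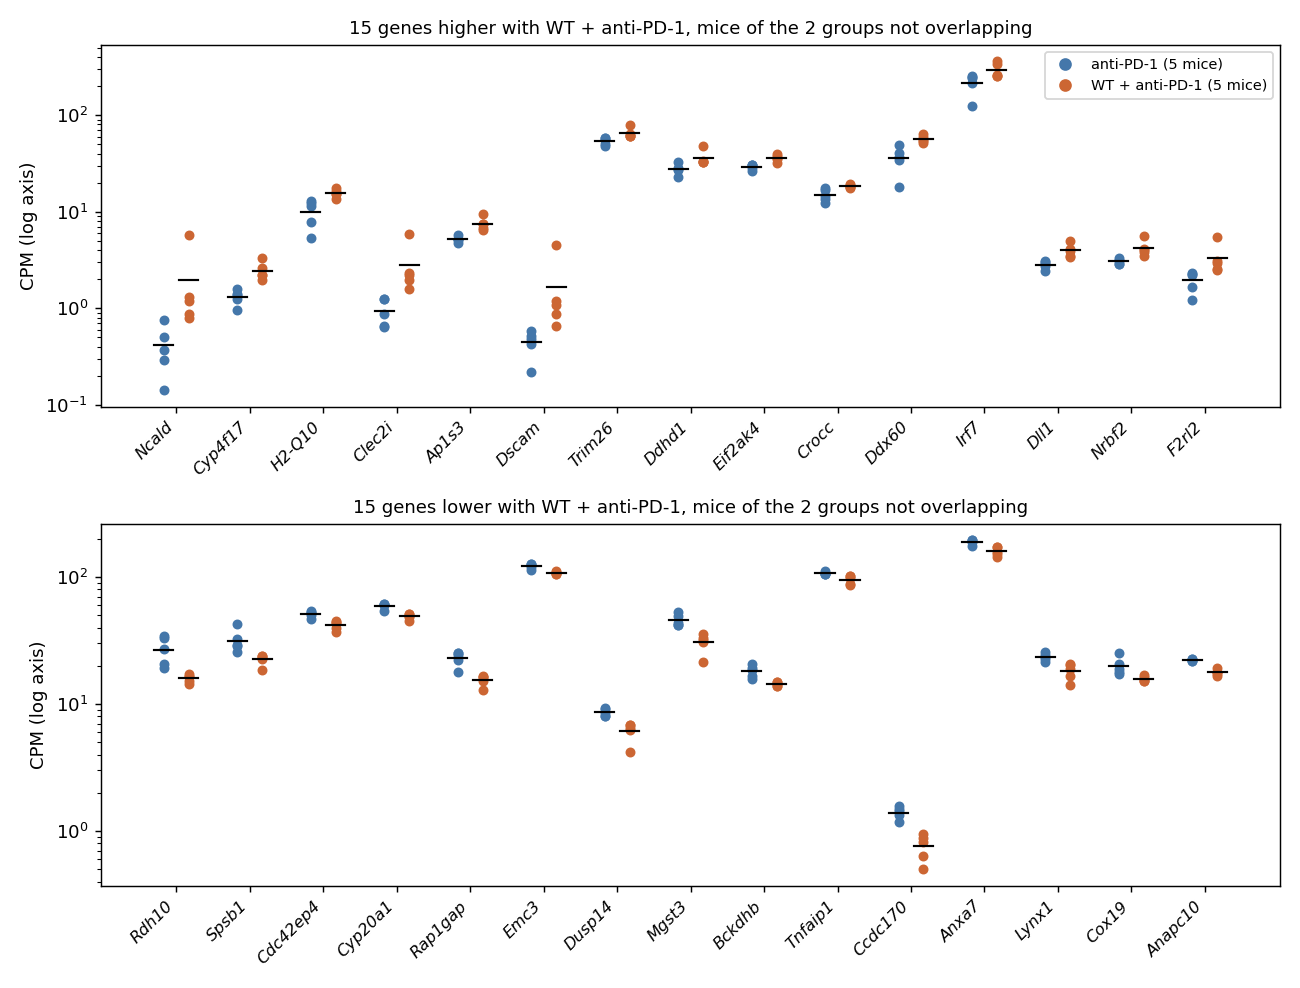
CPM on a log axis for the 15 higher (top) and 15 lower (bottom) genes with the smallest unadjusted p among genes whose 5 mice of each group do not overlap. Blue points are anti-PD-1 mice, orange points WT combination mice and black lines the means; most shifts are small beside the level of the gene, as for Irf7 (log2 fold change 0.44) and Rdh10 (-0.75).

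The plot of list medians with single mice left out places these results side by side. The T cell, cytotoxic and PD-1 lists kept a median of at least 0.56 in each of the 10 fits that left out 1 mouse, and that of the type I interferon list stayed between 0.26 and 0.50. The medians of macrophage genes ran from 0.16 to 0.88 and those of mast cell genes from 0.58 to 1.88.

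**Figure D4:**
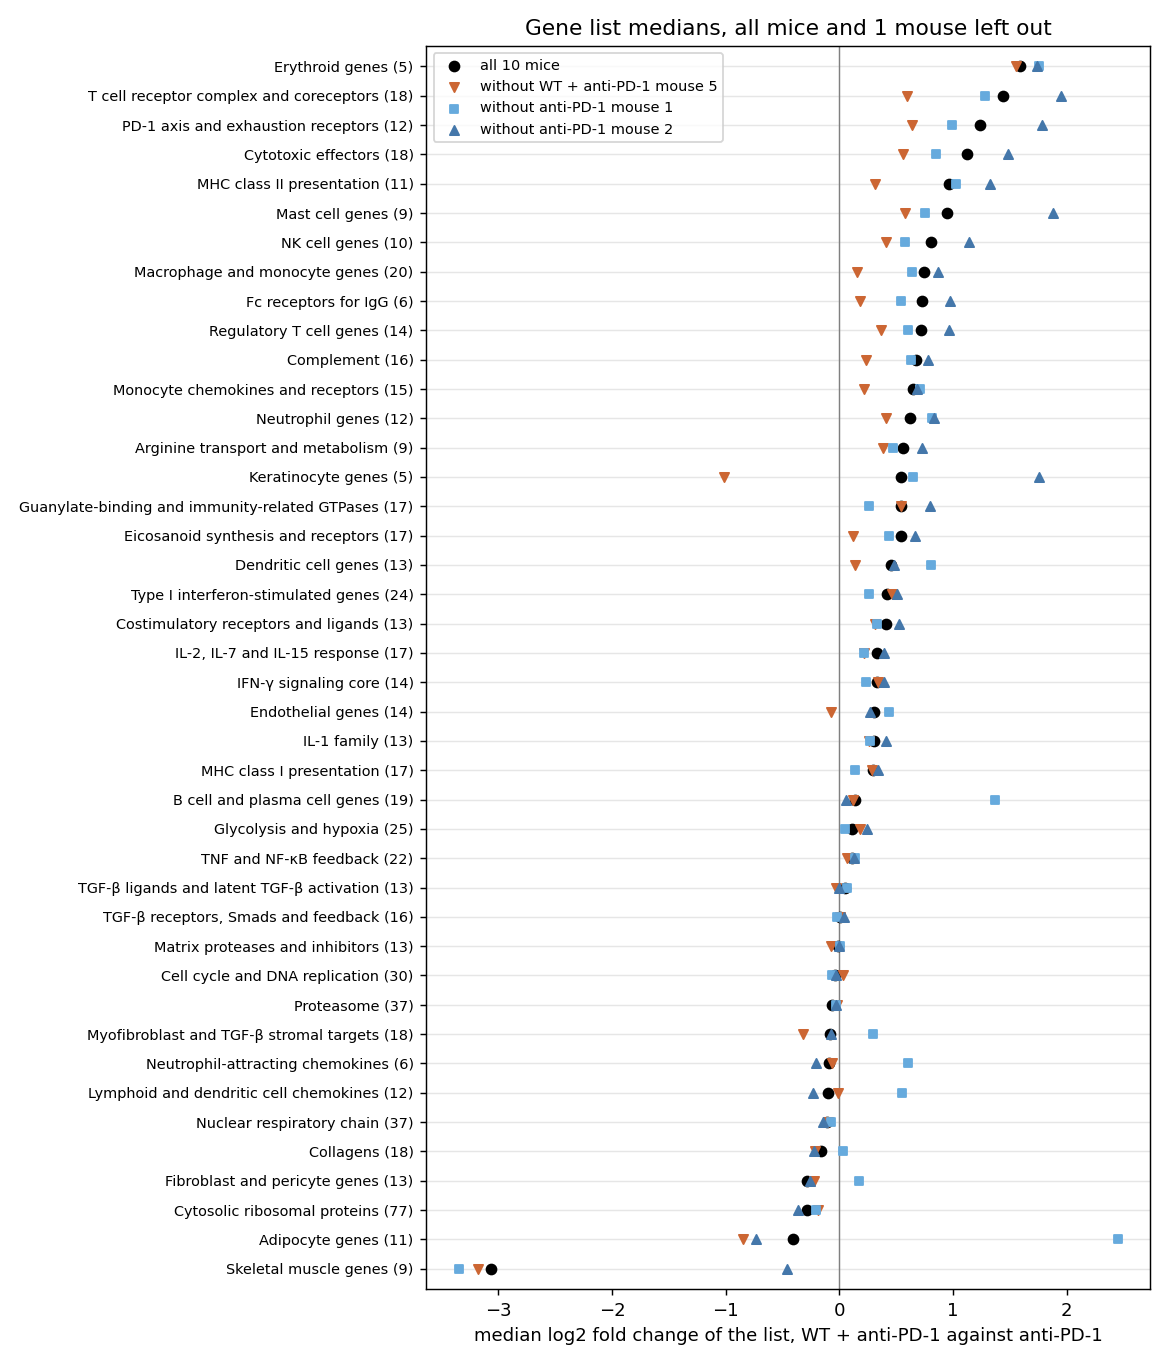
Median log2 fold change of each gene list between the WT combination and anti-PD-1 alone, with the number of genes tested in brackets. Black circles are all 10 mice, and the other symbols leave out 1 mouse; leaving out WT combination mouse 5 moves leukocyte lists toward 0, whereas anti-PD-1 mouse 1 moves interferon and adipocyte lists and anti-PD-1 mouse 2 moves mast cell and skeletal muscle lists.

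Between anti-PD-1 alone and the isotype control, 0 genes were called, with 89 higher (0.603%) and 52 lower (0.352%) at an unadjusted p under 0.05. Whether the addition of the WT mAb differed with and without anti-PD-1 was tested as an interaction over the isotype, WT, anti-PD-1 and WT combination groups. No gene was called, and 1291 had an unadjusted p under 0.05 (8.75%), 635 higher (4.3%) and 656 lower (4.44%). Leaving out 1 mouse moved these counts, from 238 higher and 266 lower without anti-PD-1 mouse 1 to 1546 and 1212 without anti-PD-1 mouse 2, with 0 genes called throughout.

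The other 2 combinations were set beside the WT combination against the same 5 anti-PD-1 mice, so their values share these controls. Adding FcD gave 0 called genes, with 953 higher (6.46%) and 630 lower (4.27%) at an unadjusted p under 0.05, and adding anti-TGF-β gave 1 called gene (0.00678%), with 1033 higher (7%) and 1488 lower (10.1%). The T cell receptor list had medians of 1.44 with WT, 0.92 with FcD and 0.66 with anti-TGF-β. In the cytotoxic list the medians were 1.12, 0.77 and 0.48, and for the type I interferon list they were 0.42, 0.29 and 0.49. For MHC class I genes they were 0.29, 0.30 and 0.52. The place of WT in this order rested on its mouse 5, since the WT medians without it were 0.60 for the T cell receptor list, below both other combinations, and 0.56 for the cytotoxic list, below FcD. The receptor and Smad list, at 0.01 with WT and 0.02 with FcD, was at -0.19 with anti-TGF-β.

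**Figure D5:**
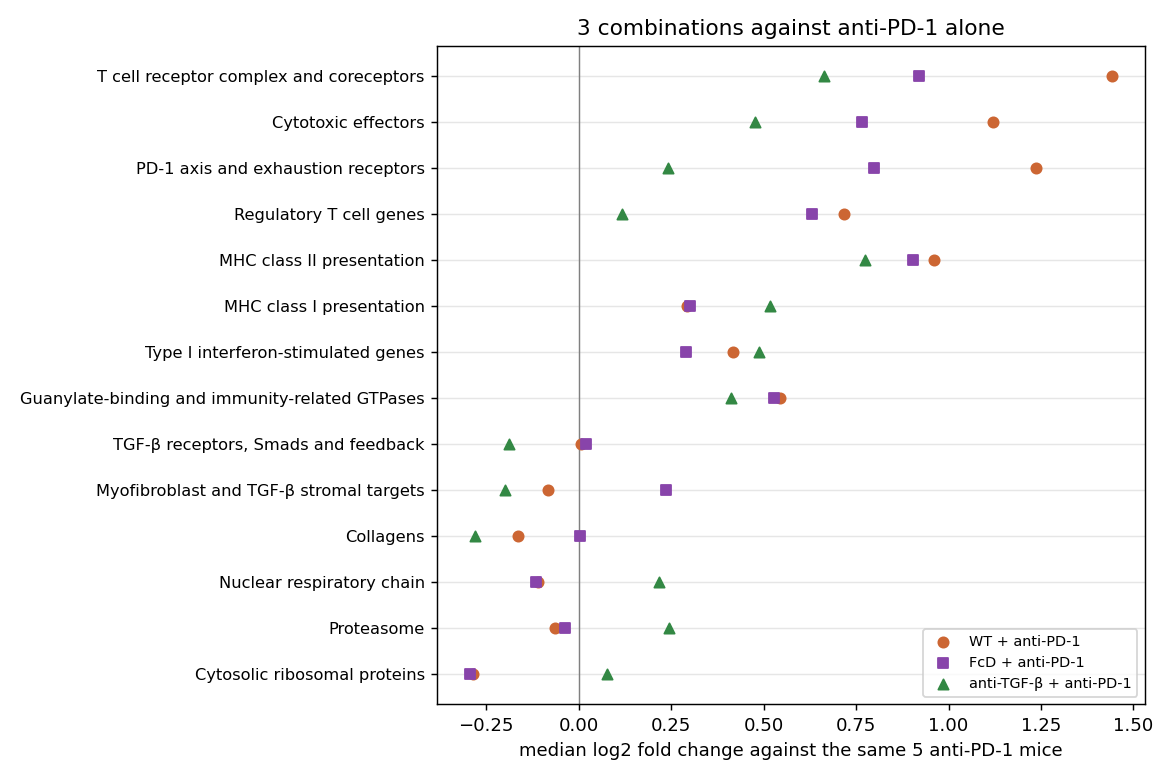
Median log2 fold change of 14 gene lists for 3 combinations, each against the same 5 anti-PD-1 mice. Orange circles are the WT combination, purple squares FcD + anti-PD-1 and green triangles anti-TGF-β + anti-PD-1; with all mice the T cell lists order WT, FcD, anti-TGF-β from high to low, an order that is lost without WT combination mouse 5 (T cell receptor list at 0.60 with WT, 0.92 with FcD and 0.66 with anti-TGF-β), and proteasome genes lie at -0.06 with WT and 0.24 with anti-TGF-β.

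Direct tests compared the combinations with each other. Between WT and FcD, 0 genes were called, and 72 higher (0.488%) and 120 lower (0.813%) had an unadjusted p under 0.05. These counts were 220 and 576 without WT combination mouse 5, with 0 genes called. Against the anti-TGF-β combination, 2684 genes passed an adjusted p of 0.05 (18.2%), 1436 higher (9.73%) and 1248 lower (8.46%) with WT, and at an unadjusted p under 0.05 the shares were 20.1% higher and 16.5% lower. This count is unstable, since it was 0 without WT combination mouse 4, without anti-TGF-β combination mouse 3 or without its mouse 5, 1187 and 1686 without WT combination mouse 3 or mouse 5, 213 and 1422 without anti-TGF-β combination mouse 2 or mouse 4, and 5309 without its mouse 1. Eif2ak4 rose by 0.54 ± 0.11 against the anti-TGF-β combination (adjusted p = 0.0225), Golgb1, a Golgi tethering protein, by 0.51 ± 0.10, and Zfp335, a zinc finger protein, by 0.41 ± 0.08. Dbi, an acyl-CoA-binding protein, Isca1, of iron-sulfur cluster assembly, and Dhrs7b fell by 0.76, 0.45 and 0.54 on the log2 scale, each with an adjusted p of 0.0225. Of the proteasome genes, 22 of 37 were called lower with WT and 1 higher, and of the respiratory chain genes 19 of 37 lower. In the receptor and Smad list 4 of 16 were called higher and 0 lower, and in the T cell receptor list 0 of 18 were called (median 0.68).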

How the data were processed

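Bulk RNA of 40 CT26 tumors, 5 per group, was sequenced by the authors, and the deposited values are raw read counts per gene, not normalized. Per the labels, reads were aligned with STAR 2.5.3a to GRCm38 and handled with SAMtools 1.6, and genes were counted with HTSeq 0.9.1; the annotation release and the strand setting are not given in the sources used here, so reads of a gene and an antisense partner may not be told apart. Columns not used: 0. Gene positions come from GENCODE M21 and promoters from RefSeq (GRCm38.p6).

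Counts were fitted with edgeR 4.0.16 (R 4.3.3; filterByExpr, TMM, robust quasi-likelihood test) over all 8 groups, with Benjamini-Hochberg adjustment over 14760 genes, and the 95% intervals and standard errors come from the same fit. CPM uses TMM-scaled library sizes, and log2 CPM a prior count of 2. Alternatives were DESeq2 1.42.0 (size factors and Wald test), limma 3.58.1 (voom with sample weights), no filter, a prior count of 0.5, a 10-mouse model, library part as a covariate, and leaving out each mouse. The main edgeR test was also run on simulated counts with known changes, and the outcome of that run is not given here. The totals of 13610069 to 19691830 reads set the counting precision, and p-values measure the spread between these mice. Replicate numbers follow accession order and pair nothing.

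Members of the comparison, the 42 gene lists and the 5 cytokine lists were chosen with earlier results of these data known. Named genes were a fixed set of pathway genes, the 15 higher and 15 lower genes with the smallest unadjusted p among those whose mice did not overlap (mean CPM of at least 1, no predicted names), the 3 members of each list with the smallest unadjusted p, and those leading the comparison with the anti-TGF-β combination. Gzma, Gzmm, Lamp1, Smad7, Ctla4 and Il2ra, and the epithelial markers, were named outside this rule.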

Additional observations from a re-analysis of the deposited data

Results flagged for a closer look

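For 33 of 342 groups of 5 mice tested over the named genes, the outermost mouse lay apart from its group: its gap to the nearest mouse, as a share of the range of log2 CPM, passed Dixon's critical value of 0.71. Chance alone flags about 1 in 20 groups, and genes of the same tumor are not independent. No explanation was tested.

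WT combination mouse 5 lay apart for Ncald (gap share 0.764), Clec2i (0.715), Trim26 (0.811), Ddhd1 (0.899), F2rl2 (0.750), Spsb1 (0.771), Dusp14 (0.810), Mgst3 (0.711), Lat (0.722), Gbp8 (0.770), H2-Q7 (0.7103), Nfkb2 (0.831), Clec9a (0.846), Ptges (0.749), Sat1 (0.716), Cd34 (0.854) and Pdgfrb (0.773). Anti-PD-1 mouse 2 lay apart for Cd4 (0.764), Cyp20a1 (0.893), Gzmk (0.760), Zap70 (0.822), Nfkb2 (0.728), Cxcr6 (0.854), Cd34 (0.716), Mylpf (0.940), Ckm (0.879), Actn3 (0.756) and Krt14 (0.714). Anti-PD-1 mouse 1 lay apart for Irf7 (0.755), Oasl1 (0.716), Ppbp (0.807), Ighg1 (0.753) and Lep (0.721).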

How the results depend on the processing

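The count of called genes between the WT combination and anti-PD-1 alone was 0 under every alternative that kept all mice, and ran from 0 to 538 when 1 mouse was left out. Genes higher at an unadjusted p under 0.05 numbered 482 with only the 10 mice in the model and 319 to 2278 with 1 mouse left out (319 without WT combination mouse 5, 995 and 1008 without anti-PD-1 mouse 1 or mouse 3). Lower genes numbered 457 with only the 10 mice, 1335 with voom and 441 to 1544 with 1 mouse left out (1534 and 486 without WT combination mouse 2 or mouse 5, and 441, 1544 and 540 without anti-PD-1 mouse 1, mouse 2 or mouse 3). Genes without overlap numbered 68 higher and 113 lower with no filter, and 48 to 580 and 88 to 659 with 1 mouse left out. Against the anti-TGF-β combination the count ran from 0 to 5309. Some list medians changed sign with all mice kept. With only the 10 mice in the model, the eicosanoid median was -0.07 (15 genes). The median of lymphocyte and dendritic cell chemokines was 0.42 in that model (9 genes). With library part as a covariate, the adipocyte median was 0.46 and the keratinocyte median -0.42. Some genes changed sign too. With voom, Lrrc32 was at -0.21, Cnn1 at -0.025, Ppbp at 0.67, Lep at 0.96, Pck1 at 0.95 (0.46 with library part) and Krt15 at -1.07. With 1 mouse left out, the log2 fold change ran from -0.36 to 0.39 for Lrrc32, -0.033 to 0.39 for Tgfb1, -0.28 to 0.067 for Itgb8, -0.87 to 0.025 for Cxcl5, -0.96 to 1.28 for Ppbp, -3.70 to 0.89 for Ighg1, -0.014 to 1.03 for Pecam1, -1.64 to 1.39 for Lep, -1.67 to 3.07 for Pck1, -3.23 to 3.15 for Krt14 and -0.64 to 1.76 for Krt15. The cause was not tested. Since no named gene passed the adjusted p between the WT combination and anti-PD-1 alone with all mice, no call of that comparison could be lost, and the 59 values that newly passed it came from fits that left out a mouse. No paired analysis was possible because the replicate numbers follow accession order and the labels tie no mouse of 1 group to a mouse of another.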
